A study of Mus musculus with 10 samples.

Results

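The 96 genes described here are the nuclear genes of the mitochondrial respiratory chain and ATP synthase in the count table, out of 46959 genes in all. They were chosen by name alone: every entry starting with Nduf, with Sdh followed by a, b, c or d, with Uqcr, with Cox followed by 4 to 8, or with Atp5. The 4 entries marked as pseudogenes by the ending -ps were left out. By complex, 44 belonged to complex I, 8 to complex II, 8 to complex III, 20 to complex IV and 16 to complex V. Among them were 12 assembly factors (8 for complex I and 4 for complex II) and 8 isoforms of complex IV subunits that are restricted to certain tissues. The naming rule itself uses no measured value.

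Complexes I to IV pass electrons from NADH and succinate to oxygen and pump protons across the inner mitochondrial membrane, and complex V uses the proton gradient to make ATP. Most of their subunits are encoded in the nucleus and imported, while a small set of hydrophobic core subunits is encoded by mitochondrial DNA. B cells that are driven into division enlarge their mitochondria and raise respiration, and NRF1 is one of the transcription factors known to bind promoters of these genes.

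RNA-seq of total RNA was made from 10 mouse libraries. The 6 splenic ones came from CD43- splenocytes cultured for 2 days with 5 µg/ml LPS, a bacterial ligand of TLR4 to which B cells respond by proliferating and by differentiating towards antibody secretion. Of these, 2 were wild type (WT, named BLACK-6 in the growth protocol) with LPS alone, 2 were WT cultures that also received 200 ng/ml SAHA, an inhibitor of histone deacetylases, from the start of the culture, and 2 came from KOKI mice. The 4 femoral libraries, labelled femoral B cells, were taken without culture and were pools of 3 mice each. The labels do not spell out KOKI. Both femoral control pools lacked RAG2 and gamma c. One femoral KOKI pool carried KOKI on that background, and the other lacked RAG2 alone, so the femoral KOKI group differs from its control by KOKI and, in 1 of 2 pools, by gamma c. RAG2 is needed to rearrange antigen receptor genes, and gamma c is a subunit shared by several cytokine receptors. Title and design text give the KOKI cultures as LPS, whereas their treatment label names LPS and SAHA. They are called KOKI LPS here and are compared with both WT groups. Names of the SAHA libraries hold D3, which is not explained beside the culture time given. Nothing but the numbers in the titles ties replicates to separate animals, so the p-values measure the spread between these libraries, which may be technical in part.

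Total counts ran from 18614742 to 29314068 per library. Summed CPM (counts scaled to a common library size with TMM factors, the unit of all CPM below) of 6 mature B cell markers was 2130 to 2890 in the splenic libraries and 8.86 to 9.93 in the femoral ones. In the femoral libraries the 7 neutrophil markers summed to 11400 to 19700 CPM, the 7 erythroid markers to 8300 to 11800 and the 6 macrophage markers to 3080 to 4780. The femoral preparations were therefore near 0 for the defining markers of mature B cells, and their label is used here only as a name. In such bulk RNA, fewer cells of one type and less RNA per cell cannot be told apart.

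Of the 96 members, 91 passed the filter on low counts in each comparison. The other 5 are tissue isoforms of complex IV: Cox8c had no count in any library, Cox7b2 had 1, Cox8b 13, Ndufa4l2 20 and Cox4i2 38 over all 10 libraries. The members took 1.48% and 1.14% of all counts in the WT LPS cultures, 1.07% and 0.873% with SAHA, 1.52% and 1.33% in the KOKI LPS cultures, 0.767% and 0.730% in the femoral control pools, and 1.03% and 1.15% in the femoral KOKI pools. The share was lowest in the femoral controls, and both SAHA libraries lay below both WT LPS libraries.

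Promoter sequences were available for 77 of the 96 members in RefSeq (build GRCm38.p6), as windows from 250 bases before to 50 bases after each annotated start. The 82 member windows were searched for CGCANGCGC, letters at the core of the palindrome that NRF1 binds, and for the reverse complement GCGCNTGCG. One or the other was present in 28 member windows (34.1%), against 6.31% of all 32851 windows, 8.61% of the 21263 windows of protein-coding genes and 13.6% of the 11471 windows of protein-coding genes tested in the splenic cultures. The 28 windows belonged to 27 genes. The stretches printed are those of the members that were higher in KOKI LPS than in WT LPS+SAHA cultures and hold the match before the start. They are shown so that the matched letters can be compared between promoters. Of tested members with a window, 9 of 27 with the letters and 16 of 48 without them were higher in that comparison, where 14.1% of all genes were. Capitals mark the match, and each stretch is written on the strand of its gene.
Atp5c1 (chr2:10080433-10080458, minus strand): tgagctcccgCGCACGCGCactgagt
Ndufa8 (chr2:36049350-36049378, minus strand): ctagagcagtGCGCTTGCGcgtcgctgga
Ndufa8 (chr2:36049339-36049357, minus strand): tcgctggagaCGCATGCGC
Sdhd (chr9:50603909-50603937, minus strand): cgctggggtgCGCACGCGCggtggcagcg
Sdha (chr13:74350319-74350347, minus strand): gtttacagggCGCAGGCGCaccaccactc
Sdha (chr13:74350276-74350304, minus strand): gggcgtgttgCGCAGGCGCagaatcttcc
Sdha (chr13:74350241-74350259, minus strand): cgactcggtgCGCAAGCGC
Ndufa11 (chr17:56717692-56717720, plus strand): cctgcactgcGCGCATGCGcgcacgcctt
Sdha, the flavoprotein of complex II, held 3 matches, the farthest beginning at position -97 from its start. On either strand, the ETS-type CCGGAAGT was in 6.10% of member windows and 8.26% of the windows of tested coding genes. The same shares were 8.54% and 3.09% for the YY1-type AAGATGGCG, 7.32% and 9.89% for the E-box CACGTG, and 11% and 6.87% for TATAAA. A match of letters is a description and does not show binding. Members with the NRF1-type letters and members without them had similar median changes in each splenic comparison: -0.47 (27 genes) and -0.49 (48 genes) with SAHA, 0.17 and 0.07 for KOKI LPS against WT LPS, and 0.53 and 0.59 for KOKI LPS against WT LPS+SAHA, all on the log2 scale.

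Levels between genes were compared per length, as TPM (counts per exon base, scaled to the same total in each library) from the exon lengths in the table. In WT LPS cultures the median subunit level was 67.3 TPM for complex I (36 subunits), 41.4 for complex II (4), 191 for complex III (8), 244 for complex IV (11 subunits without tissue isoforms) and 134 for complex V (15). Taken library by library, the complex V median was 2.94 and 3.87 times that of complex II (mean 3.41). Subunits of 1 complex also differed widely in level: in complex I, Ndufb2 was at 8.51 TPM and Ndufa1 at 234, a 27.5-fold range, while in complexes II and IV the highest subunit exceeded the lowest 7.33-fold and 7.25-fold. The table counts Ndufb2 over 5628 exon bases, which lowers its level per length. The same holds for other members, such as Ndufb7, with 4522 exon bases beside a principal transcript of 623. Cox6c has 3567 beside 606. The levels and medians given here therefore depend on the exon lengths used. In complex II the levels ran from Sdhc at 16.4 TPM to Sdhd at 120.4. By these exon lengths, the members with the highest mean TPM over all 10 libraries were Atp5l (subunit g of ATP synthase), Cox6b1 and Cox8a. They are small subunits of the membrane part of complex V and of complex IV. Their order would differ with other lengths. Cox7c had 89320 counts over 1131 exon bases and a principal transcript of 540, while Atp5l had 73126 counts over 511 exon bases. The lowest ones with any count were Cox7b2, Ndufa4l2 and Cox8b.

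**Figure D1:**
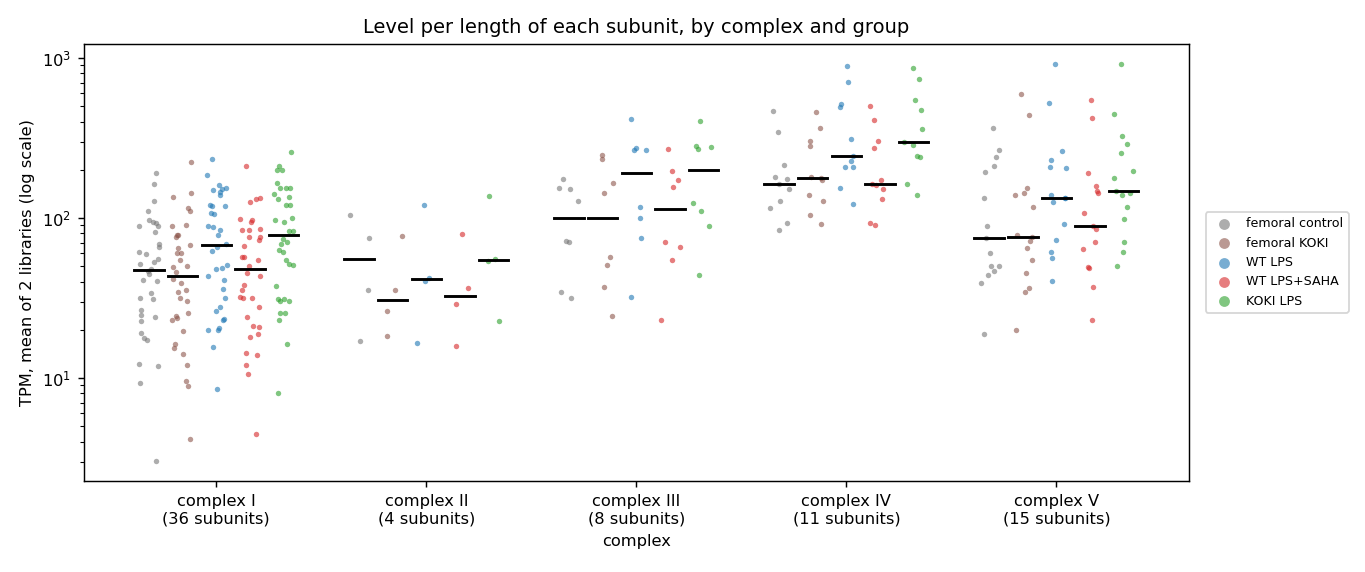
Level per length (TPM, log scale, mean of 2 libraries) of each subunit, by complex and group; each point is 1 subunit and black bars are medians. Tissue isoforms, assembly factors, Cox7a2l and Atp5s are not plotted. TPM of all genes is shifted between groups, with a median log2 ratio of 0.58 for femoral control against WT LPS and -0.83 for femoral KOKI against control. In WT LPS cultures the medians run from 41.4 TPM for complex II to 244 TPM for complex IV.

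With SAHA, most members had lower values in the WT LPS cultures, and few of them passed the threshold. Of 91 members tested, 80 had a negative log2 change and 11 a positive one, with a median of -0.47 against 0.02 for all 15342 genes tested. With edgeR's quasi-likelihood test, 2 members fell (Benjamini-Hochberg adjusted p under 0.05) and none rose, where 4.64% of all genes passed, 3.69% falling and 0.952% rising. At an unadjusted p under 0.05, 29 were lower and 1 was higher, where 15.4% of all genes were lower and 9.87% higher. The 2 SAHA libraries lay below both WT LPS libraries for 38 members and above them for 2, against 30.3% and 26.0% of all genes.

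Atp5g1 encodes one of 3 precursors of the same c subunit, which forms the rotating ring of ATP synthase (chromosome 11, 96068852 to 96075670, mm10). Its level was 199 and 178 CPM with LPS and 117 and 96.5 CPM with LPS and SAHA. The groups did not overlap, and it fell by 0.79 on the log2 scale (SE 0.16, edgeR adjusted p = 0.0389). The other c-subunit genes, Atp5g3 and Atp5g2, changed by -0.53 and -0.33 and did not pass. Ndufs1, the largest iron-sulfur subunit of complex I (chromosome 1, 63143596 to 63176833), had 122 and 116 CPM with LPS and 77.5 and 79.7 CPM with SAHA. It fell by 0.57 (SE 0.12, edgeR adjusted p = 0.0431), and its libraries agreed closely within each group. Ndufs1 overlaps exons of Eef1b2 on the other strand, and whether counting used strand is not known. Eef1b2 had 835 and 689 CPM with LPS and 517 and 508 with SAHA (-0.54, edgeR adjusted p = 0.105). The part of Eef1b2 in the counts of Ndufs1 was not tested. A fit with the WT number in the titles as a block called 36 members lower and 1 higher, where 9.69% of all genes were lower and 3.44% higher; the labels do not say whether a number marks 1 animal. The calls of Atp5g1 and Ndufs1 depended on the set of libraries: leaving out any 1 of the 4 gave no called member, and the median change was -0.24 without WT LPS replicate 1, -0.21 without SAHA replicate 2 and -0.71 without SAHA replicate 1.

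All 36 complex I subunits had a negative change, with a median of -0.46. For its 7 core subunits, which carry the flavin and the iron-sulfur clusters, both SAHA libraries lay below both WT LPS libraries. Ndufs3 had 106 and 92.2 CPM with LPS and 75.4 and 56.7 with SAHA, and Ndufs8 had 82.7 and 78.2 against 57.3 and 60.1. Their changes were -0.55 and -0.42 with edgeR adjusted p of 0.0863 and 0.0756, outside the threshold. Ndufv1, which holds the NADH site, showed the smallest change of the core, -0.21. In complex II, Sdhd and Sdhb, a membrane anchor and the iron-sulfur subunit, changed by -0.59 and -0.51, while Sdhc, the other anchor, stood at 47.4 and 53.8 CPM with LPS and 47.4 and 47.5 with SAHA. Sdhc thus overlapped between the groups, unlike the other 3 subunits of its complex.

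All 8 members of complex III were negative, from -0.71 (Uqcrq) to -0.34 (Uqcrh). The core proteins Uqcrc1 and Uqcrc2 and the Rieske iron-sulfur protein Uqcrfs1 were below WT LPS in both libraries, at -0.52, -0.47 and -0.51, and the 5 small subunits overlapped. Complex IV had a median of -0.54 over 15 tested members. Only Cox4i1, Cox5a and Cox8a among them separated the groups, at -0.43, -0.64 and -0.73, and Cox7a2l, which joins complexes III and IV into supercomplexes, was at 0.08. In complex V the catalytic subunits Atp5a1 and Atp5b changed by -0.49 and -0.70 and the central stalk subunit Atp5c1 by -0.62. Atp5b went from 890 and 953 CPM to 503 and 610.5, a separation wider than the spread within either pair, with an edgeR adjusted p of 0.0765.

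The 12 assembly factors, which build the complexes without staying in them, had a median of 0.08, and none passed. All 4 complex II factors were positive. Sdhaf1, which helps to insert iron-sulfur clusters into Sdhb and was picked for its value, had 12.05 and 14.6 CPM with LPS and 23.9 and 19.6 with SAHA (0.73, edgeR adjusted p = 0.0778). Against this, its client Sdhb went from 87.2 and 83.8 CPM to 57.2 and 60.5. The difference between assembly factors and subunits was not tested.

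KOKI LPS cultures were close to WT LPS cultures for most members. The median change was 0.08 against -0.02 for all genes, with 64 members positive and 27 negative. No member passed with edgeR in either direction, where 4.08% of all genes passed, 2.25% rising and 1.83% falling. At an unadjusted p under 0.05, 8 were higher and 1 lower (8.86% and 8.60% of all genes). DESeq2 called 2 higher and 1 lower, without a share of all genes to set beside them. The groups did not overlap for 24 members that were higher and 4 that were lower, against 21.4% and 25.7% of all genes. Among the core subunits, Ndufv2 had 77.3 and 77.7 CPM in WT LPS and 111 and 101 CPM in KOKI LPS cultures (0.47, SE 0.12, edgeR adjusted p = 0.0768). Sdhb and Sdhc, at 0.35 each, also separated the groups without passing.

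The widest changes were in scarce tissue isoforms of complex IV. Cox7a1, the heart and muscle form of subunit VIIa, had 0.894 and 0.707 CPM in WT LPS and 2.23 and 5.54 in KOKI LPS cultures (2.29, SE 0.61, edgeR adjusted p = 0.0919). Cox6a2, the heart and muscle form of subunit VIa (chromosome 7, 128205435 to 128206387), had 5.32 and 3.76 CPM in WT LPS and 1.11 and 1.37 in KOKI LPS cultures (-1.84, SE 0.48, edgeR adjusted p = 0.082). These isoforms contributed little beside their general forms: Cox6a2 was 3.18% and 2.88% of the summed Cox6a1 and Cox6a2 TPM in WT LPS and 0.517% and 0.955% in KOKI LPS cultures.

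KOKI LPS and WT LPS+SAHA cultures differed at many members. The comparison shares its SAHA libraries with the one above, so its values are given beside those and are no independent support for them. Of 91 members, 33 were higher in KOKI LPS and 1 was lower by edgeR, where 14.1% of all genes were higher and 9.64% lower. At an unadjusted p under 0.05, 43 were higher and 3 lower, where 20.7% and 17.5% of all genes were. The median was 0.55 against -0.03 for all genes, and the groups did not overlap for 53 members that were higher and 3 that were lower (32.9% and 32.7% of all genes). By complex, 16 of 36 complex I subunits, all 4 of complex II, 3 of 8 of complex III, 2 of 15 of complex IV and 8 of 16 of complex V were higher.

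Catalytic and core subunits made up much of this set. In complex I, 6 of 7 core subunits were higher, Ndufv2 most (58.2 and 56.9 CPM with SAHA, 111 and 101 in KOKI LPS; 0.87, SE 0.12, edgeR adjusted p = 0.00272). The exception was Ndufv1 at 0.35 (adjusted p = 0.0695). All complex II subunits were higher, from 0.42 for Sdhc to 0.85 for Sdhb. In complex III the 3 were Uqcrc1 (0.86), Uqcrfs1 (0.76) and Uqcrc2 (0.61), the same 3 that separated the groups with SAHA, and in complex IV they were Cox4i1 (0.79) and Cox5a (0.77). In complex V, Atp5g1 had the largest change of any member called (117 and 96.5 against 234 and 193 CPM; 0.99, SE 0.16, edgeR adjusted p = 0.00523), followed by Atp5f1 of the peripheral stalk (0.95), Atp5c1 (0.93) and Atp5b (0.92). Among the accessory subunits of complex I, Ndufb8, Ndufc2 and Ndufa11 showed the largest called changes, at 0.97, 0.96 and 0.93. The 1 member that was lower was Sdhaf1, named here after its value was seen (23.9 and 19.6 against 15.5 and 11.7 CPM; -0.68, SE 0.21, edgeR adjusted p = 0.0466).

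**Figure D2:**
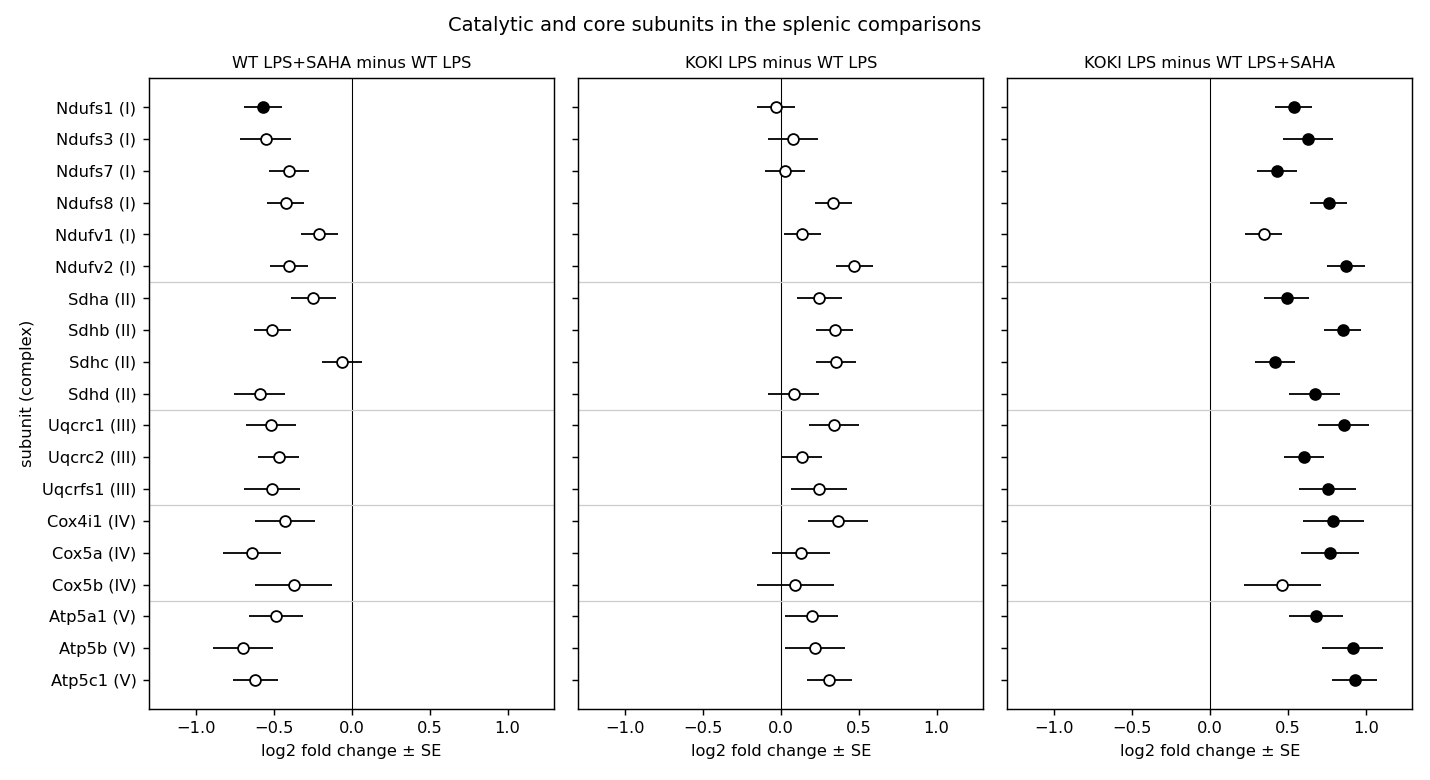
Log2 fold change with its standard error (bars) of 19 catalytic and core subunits in 3 splenic comparisons, which share libraries; filled points passed an edgeR adjusted p under 0.05 and open points did not. The changes are all below 0 with SAHA, with Ndufs1 filled, none is filled for KOKI LPS against WT LPS, and 17 of 19 are filled for KOKI LPS against WT LPS+SAHA.

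With the number in the titles as a block, 65 members were higher and 1 lower, where 19.3% of all genes were higher and 13.1% lower. KOKI and WT mice differ in genotype, so a number cannot mark shared animals here, and same-numbered libraries correlated at 0.16. The count of 34 calls without a block rested on all 4 libraries. It rose without SAHA replicate 1 and fell without any of the others. The median log2 change of members ran from 0.28 to 0.89 over the alternative analyses. Of the 28 named members called, 7 passed in all 13 alternative analyses: Ndufv2, Ndufs8, Sdhb, Uqcrc1, Atp5c1, Atp5f1 and Atp5g1. Markers of antibody-secreting cells moved with these groups, and their part in the result was not tested: the 4 plasmablast markers summed to 208 and 198 CPM in WT LPS, 104 and 109 with SAHA and 798 and 677 in KOKI LPS cultures.

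Transcript length moved with differences between replicates. Within each splenic pair, short members had the higher median ratio of replicate 1 over 2. In the SAHA pair, the median log2 ratio of replicate 1 over 2 was 0.87 for 35 members with a principal transcript of up to 700 bases, 0.40 for 32 of over 700 and up to 1500 bases and 0.02 for 23 longer ones. The same classes gave 0.45, 0.37 and 0.07 in the WT LPS pair and 0.37, 0.27 and 0.05 in the KOKI LPS pair. Other protein-coding genes of those lengths showed the pattern too, with 0.63, 0.10 and -0.01 in the SAHA pair. In KOKI LPS against WT LPS+SAHA, 5 of 35 short members, 14 of 32 of middle length and 14 of 23 long ones were called higher. Their median changes were alike at 0.53, 0.58 and 0.61, beside 0.23, 0.25 and 0.02 for other protein-coding genes. Calls of other genes are not given by length, so it is not known whether this order of calls is particular to the members. With each library's trend with length removed, an analysis chosen after seeing the data, the medians were -0.22 for SAHA and 0.28 for KOKI LPS against WT LPS+SAHA. In the latter, 24 members were higher and 2 lower, and the share of all genes called in that fit is not given here.

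**Figure D3:**
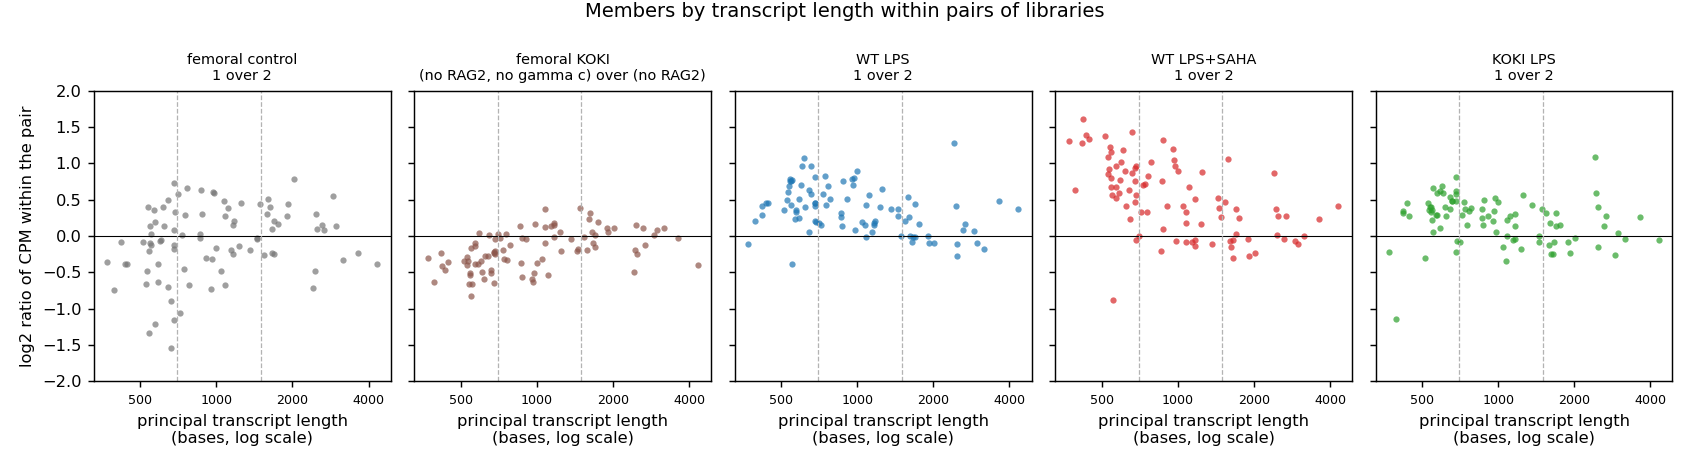
Log2 ratio of CPM between the 2 libraries of each pair (y axis) against principal transcript length (x axis, bases, log scale), 1 point per member, with dashed lines at 700 and 1500 bases. In the 3 splenic pairs short members lie higher on the whole than long ones, with exceptions such as Cox7a1 below 0 in KOKI LPS, with Spearman coefficients over 90 members of -0.41 (WT LPS), -0.63 (SAHA) and -0.33 (KOKI LPS); between the femoral KOKI pools it is 0.56.

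Genes that work with the respiratory chain gave the following counts, to be read beside the 3.69% of all genes that fell with SAHA and the 14.1% that were higher and 9.64% that were lower in KOKI LPS than with SAHA. Of 76 tested mitochondrial ribosomal proteins, 12 fell with SAHA (median -0.54), none passed for KOKI LPS against WT LPS, and 48 were higher in KOKI LPS than with SAHA (median 0.61). Mrpl45 fell by 0.74 with SAHA (edgeR adjusted p = 0.0369). Of 13 TCA cycle enzymes, Idh3a, a subunit of isocitrate dehydrogenase, fell with SAHA (-0.74, edgeR adjusted p = 0.0403), and 10 were higher in KOKI LPS than with SAHA. Cyc1, the cytochrome of complex III that the naming rule does not reach, fell with SAHA by 0.58 (edgeR adjusted p = 0.0469), and Cycs, the mobile cytochrome c, was 1.16 higher in KOKI LPS than with SAHA (adjusted p = 0.0294). Of 40 assembly factors outside the naming rule, Fastkd2 fell with SAHA and 7 were higher in KOKI LPS than with SAHA, shares near those of all genes.

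Of 16 regulators of mitochondrial genes, none passed with SAHA or for KOKI LPS against WT LPS. In KOKI LPS against WT LPS+SAHA, 3 were higher, among them Tfam, which packages mitochondrial DNA (0.52), and Polg, the polymerase of mitochondrial DNA (0.63), and 2 were lower, Ppargc1a, a coactivator of mitochondrial gene expression (-2.16), and the nuclear receptor Esrra (-0.71). These counts too lie near the shares of all genes. The subunits encoded by mitochondrial DNA stayed without a call: of 12 tested, none passed in the 3 splenic comparisons, with medians of -0.12 for SAHA, -0.11 for KOKI LPS against WT LPS and -0.08 for KOKI LPS against WT LPS+SAHA. The difference between nuclear and mitochondrial subunits was not tested.

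In femoral KOKI pools, most members had more CPM than in the femoral controls, and no member passed in the fit without a block. With the number in the descriptions as a block, 41 were higher and 0 lower, where 3.48% of all genes were higher and 1.74% lower. Control and KOKI pools come from mice of different genotypes, so a number cannot mark shared animals. Same-numbered pools correlated at 0.075, and the KOKI pool numbered 2 is the one lacking RAG2 alone. The block count is therefore not read as a paired result. Of 91 members, 83 were positive and 8 negative, with a median log2 change of 0.71 against -0.02 for all 16624 genes tested. With edgeR no member rose or fell, where 0.0301% of all genes rose and none fell. At an unadjusted p under 0.05, 60 members were higher and none lower (8.67% and 7.50% of all genes). DESeq2 called 39 higher and none lower. The share of all genes that DESeq2 called is not given here, so its count is not read as particular to the members. The 2 KOKI pools lay above both control pools for 72 members and below them for 1, against 24.8% and 24.5% of all genes. TPM multiplies all genes of a library by 1 further factor, and on that scale the median log2 ratio of group means was -0.83 for all genes and -0.11 for members, so that 36 members had the higher mean in the KOKI pools and 55 in the controls. Relative to all genes the members lay 0.72 higher in TPM and 0.73 higher in CPM.

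Uqcr10 and Atp5k were among the members with large CPM differences. Uqcr10, a small subunit of complex III, had 40.8 and 53.4 CPM in the controls, 125 in the KOKI pool lacking RAG2 and gamma c and 174 in the KOKI pool lacking RAG2 (1.68, SE 0.23, edgeR adjusted p = 0.0922). Atp5k, subunit e of ATP synthase, had 90.3 and 116 CPM against 267 and 329 (1.54, SE 0.23, adjusted p = 0.0922). The largest change, 2.19 for Atp5e, rested on controls that differed 4.79-fold from each other, at 20.3 and 97.5 CPM, against 227 and 303. Catalytic and core subunits were mixed. Atp5a1 had 514 and 417 CPM in the controls and 551 and 498 in the KOKI pools, and Sdha had 211 and 143 against 151 and 149, both overlapping. Ndufv1 had 45.5 and 53.6 CPM against 67.3 and 72.0 (0.50), and Sdhc had 30.8 and 38.7 against 67.6 and 62.5 (0.91, edgeR adjusted p = 0.115), without overlap. By length, the median was 1.09 for short, 0.58 for middle and 0.23 for long members, beside 0.73, 0.26 and -0.06 for other protein-coding genes of those lengths.

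The call count changed strongly when 1 library was left out. Such fits keep a lone library in 1 group, so their counts are not read as a result. The median log2 change of members ran from 0.28 to 0.85 over the alternative analyses. Some cell type markers moved with the groups, and their part was not tested. The 4 osteoblast and stroma markers summed to 481 and 1191 CPM in the controls and to 2364 and 2307 in the KOKI pools, the 6 mast cell, basophil and eosinophil markers to 1203 and 1325 against 1399 and 1767, and the 5 early lymphoid markers to 49.9 and 42.3 against 63.5 and 64.8, each without overlap. Neutrophil markers (14710 and 11390 against 11990 and 19660), erythroid markers (8300 and 8907 against 8412 and 11850) and macrophage markers (3080 and 3876 against 4783 and 3442) overlapped.

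Between femoral control pools and WT LPS cultures, which differ in tissue, culture, genotype and cell types at once, 76 of 91 members were lower in the femur and 2 were higher by edgeR, where 42.4% of all 20204 genes tested passed, 21.1% lower and 21.3% higher. At an unadjusted p under 0.05, 78 members were lower and 2 higher (24.8% and 25.6% of all genes). The median was -1.06 against 0.02 for all genes, and groups did not overlap for 84 lower and 2 higher members (35.3% and 36.1% of all genes). Every tested complex III subunit and all 11 general complex IV subunits were lower, and Sdha alone in complex II was not (211 and 143 against 159 and 152 CPM; 0.19). Uqcrq had 35.3 and 43.9 CPM in the femur and 249 and 153 in culture (-2.34, SE 0.34, edgeR adjusted p = 0.000171). Ndufaf4, a complex I assembly factor, had 15.1 and 17.8 against 84.2 and 60.3 (-2.13, adjusted p = 8.3e-06). In TPM, where the median of all genes was 0.58, 74 members had the lower mean in the femur and 17 the higher, and the members lay 1.06 below all genes, as against 1.05 in CPM. By transcript length, the median change was -1.46 for short, -1.03 for middle and -0.62 for long members, beside -0.86, -0.40 and 0.10 for other protein-coding genes. The count of 78 calls fell without WT LPS replicate 1. It was 50 with the trend with length removed, where Ndufb9 reversed to 0.58. The share of all genes called with the trend removed is not given here. The median log2 change of members ran from -1.24 to -0.52 over the alternative analyses.

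The 2 members that were higher in the femur are tissue isoforms of complex IV. Cox6b2, the testis form of subunit VIb (chromosome 7, 4751792 to 4753094), had 7.53 and 8.27 CPM in the femoral controls, 14.95 and 24.0 in the femoral KOKI pools, and 0.255 and 0.484 in WT LPS cultures (control against WT LPS: 4.38, SE 0.50, edgeR adjusted p = 2.55e-05). Cox6a2 had 10.7 and 12.2 CPM in the femoral controls, 21.8 and 34.3 in the femoral KOKI pools and 5.32 and 3.76 in WT LPS cultures (1.34, past the threshold in 10 of 11 alternative analyses). Per length, Cox6a2 made up 11.7% and 14.8% of the Cox6a pair in the controls and 16.1% and 18.7% in the KOKI pools, and Cox6b2 made up 2.05% to 3.46% of the Cox6b pair in femoral libraries and at most 0.304% in splenic ones. Each library of the femur thus lay above each library of the spleen for both isoforms. Cox6a2 overlaps Itgad on the other strand; Itgad had 7.59 and 14.3 CPM in the femoral controls, 6.94 and 5.33 in the femoral KOKI pools and at most 0.466 in the spleen. Itgad too was thus higher in the femur than in the spleen, and its part in the counts of Cox6a2 was not tested.

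The change with KOKI differed between spleen and femur for 1 member. Cox6a2 changed by -1.84 in KOKI LPS against WT LPS cultures and by 1.29 in femoral KOKI against control pools, neither past the threshold. The difference of the changes (spleen minus femur) was -3.12 on the log2 scale (SE 0.51, edgeR adjusted p = 0.0188), where 0.431% of all genes had a negative and 0.416% a positive difference past the threshold. It passed in 9 of 14 alternative analyses. For all members the median difference was -0.61, 28 were below 0 at an unadjusted p under 0.05 and none above, against 7.16% and 5.98% of all genes.

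**Figure D4:**
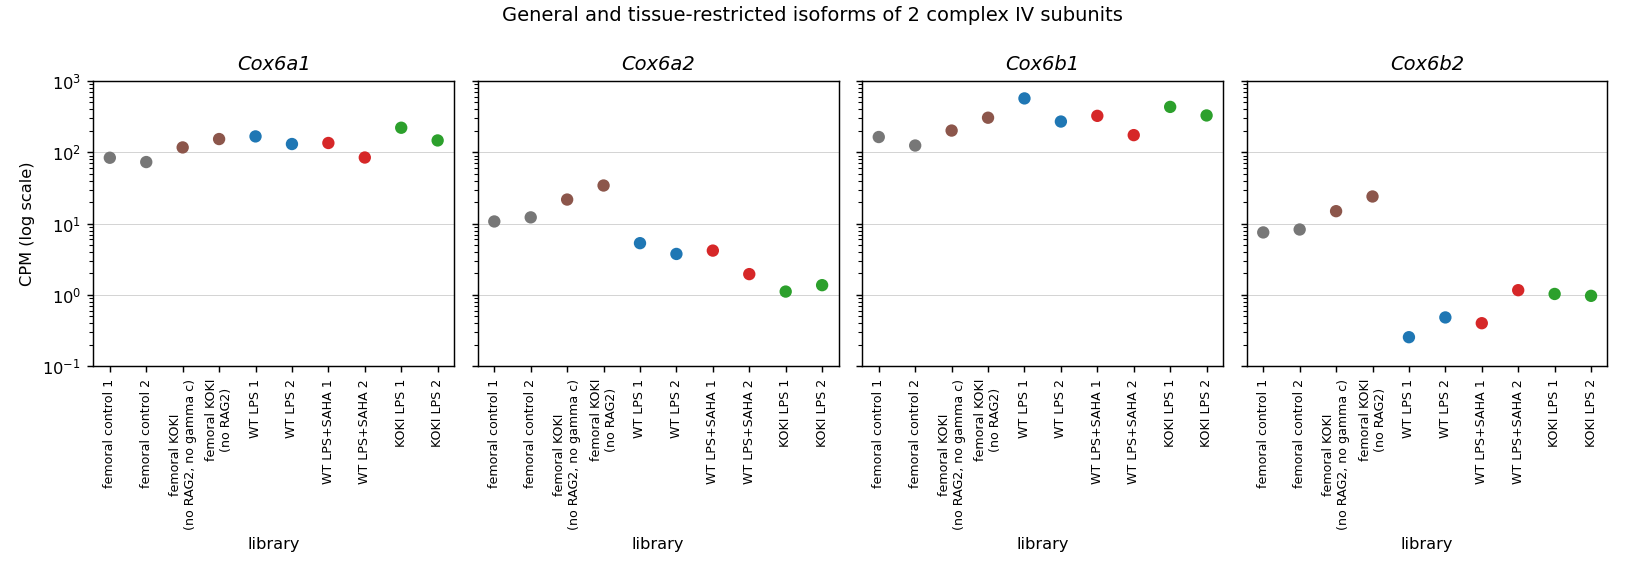
CPM per library (log scale) of the general isoforms Cox6a1 and Cox6b1 and of the tissue isoforms Cox6a2 and Cox6b2; each point is 1 library. Cox6a2 is at 10.7 to 34.3 CPM in the femur and at 1.11 to 5.32 in the spleen, lowest in KOKI LPS, while Cox6a1 and Cox6b1 are above 70 CPM in every library.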

How the data were processed

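Libraries were TruSeq Stranded Total RNA on miRNeasy extracts, per the labels' protocols. The authors deposited 1 table of raw gene counts without normalisation. STAR 2.4.0a, featureCounts of Subread 1.4.6-p1 and the mm10 (GRCm38) build are named per the submitters' processing notes; whether counting used strand, and what was done with multiply mapping reads, is not given in the sources used here. The 100 spike-in and phiX entries were left out. Groups came from the labels. Tests were edgeR 4.0.16 (R 4.3.3) quasi-likelihood F tests with TMM, filterByExpr (minimum count 10, minimum total 15) and Benjamini-Hochberg adjustment over all genes, with a threshold of 0.05. The SAHA and splenic KOKI comparisons came from the 6 splenic libraries in 3 groups, femoral KOKI from the 4 femoral libraries, and the tissue and spleen-minus-femur comparisons from all 10 libraries in 6 groups, where a lone pool was assumed to vary like the others. DESeq2 1.42.0 was an alternative. Each comparison's log2 fold changes come from its own fit, and CPM from 1 TMM scale of all 10 libraries; TPM used the exon lengths of the table. Principal transcript lengths (95 of 96 members) came from GENCODE M21. On simulated data for the SAHA comparison (14677 genes, 200 changed), the edgeR test called 85.1% of genes changed 1.5-fold and all of those changed 2-fold or 4-fold, with 11 false calls. The simulation gave every gene the same fixed spread and no trend with transcript length. Real spread differed between members, with an SE of 0.12 for Ndufs1 and 0.36 for Cox7b in that comparison. The simulated shares therefore do not give the power of the test in these data.

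Members named are the catalytic core subunits (1 is not reported here by name), the complex IV, Ndufa4 and c-subunit isoforms, up to 15 called members with the largest change per comparison, and the 3 highest and 3 lowest per length; of each list, up to 4 called genes with the largest change. Members named outside that rule, such as Sdhaf1, Atp5k, Uqcrh and Ndufa1, were chosen after their values were seen. The members and lists were chosen with earlier results of these data known. The promoter letters were chosen after the fits were known. Counting precision is set by the depth per library (18614742 to 29314068 counts), and reads carry no molecular identifiers.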

Additional observations from a re-analysis of the deposited data

Results flagged for a closer look

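Cox6a2 stood out because its change with KOKI differed between tissues by a test of the difference itself: the spleen minus femur difference was -3.12 on the log2 scale (edgeR adjusted p = 0.0188). It had 5.32 and 3.76 CPM in WT LPS and 1.11 and 1.37 in KOKI LPS cultures, but 10.7 and 12.2 in femoral control and 21.8 and 34.3 in femoral KOKI pools. The value ranged from -3.45 to -2.52 over 14 alternative analyses, with an edgeR or DESeq2 adjusted p of up to 0.104, and 5 of them did not pass, each of which left out 1 library. The tissues also differ in culture, genotype background and cell types, which cannot be told apart here.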

How the results depend on the processing

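Counts of members past the threshold depended on the tool and the filter more than their direction did. The shares of all genes called under these settings are not given in this paragraph. Its counts therefore show only how the calls of members varied. DESeq2 called 15 members for SAHA, 3 for KOKI LPS against WT LPS, 39 for femoral KOKI and 5 for spleen minus femur. Without the low-count filter these were 41, 2, 38 and 21, and 56 for KOKI LPS against WT LPS+SAHA (34 as reported). Other scalings gave 1 (RLE), 0 (total counts) and 0 (upper quartile) for SAHA, and 22 (total counts) and 21 (upper quartile) for KOKI LPS against WT LPS+SAHA. Fitting all 10 libraries gave 0, 1 and 20 in the 3 splenic comparisons, and the 4 SAHA and WT LPS libraries alone gave 0. Total counts moved the median of all genes to 0.12 (SAHA), -0.18 (femoral KOKI), 0.38 (femur against WT LPS) and 0.18 (spleen minus femur), the upper quartile to 0.16 (SAHA) and -0.18 (KOKI LPS against WT LPS+SAHA), and RLE to 0.17 (femur against WT LPS); relative to all genes, member medians moved by at most 0.05. With the trend with transcript length removed, chosen after seeing the data, the counts were 4 for SAHA, 2 for KOKI LPS against WT LPS and 50 for femur against WT LPS (78 as reported), and Ndufb9 reversed in the last to 0.58; the cause was not tested. A replicate block on the title or description number gave 37 calls for SAHA, 4 and 66 for the KOKI LPS comparisons and 41 for femoral KOKI, and 22 for SAHA with the length trend removed as well (chosen after seeing the data). Labels do not say that a number marks shared animals, and for that reason the numbers were not taken as pairs. Same-numbered libraries correlated at 0.453 for SAHA, above 0.13 and 0.16 for the KOKI LPS comparisons and 0.075 for femoral KOKI. Whether the WT cultures with and without SAHA were paired thus stays unsettled, and the SAHA call count depends on it. Leaving out 1 library each gave 0 to 0 calls for SAHA, 0 to 0 and 13 to 46 for KOKI LPS, 0 to 61 for femoral KOKI, 39 to 74 for femur against WT LPS and 0 to 4 for spleen minus femur. The ratio of complex V to complex II was 2.94 to 3.87. No paired fit was made for femur against WT LPS or spleen minus femur, whose numbers do not refer to the same cultures.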

Other observations

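Close copies of members in the genome limit some counts. For 23 members a pseudogene copy matched at 95% identity or more over at least 100 bases, and Atp5l had the most copies, 9. Counts assigned to the copies of Atp5g2 came to 24.3% of its own counts over the 10 libraries, those of Ndufs3 to 8.81%, of Ndufs5 to 8.65% and of Cox7a2l to 8.23%. Reads shared between a gene and its copies may have been split or dropped. An exon of another gene lies on the other strand within 26 members and on the same strand within 4.

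The mitochondrially encoded subunits summed to 17810 and 12710 CPM in WT LPS, 15900 and 10650 with SAHA and 15070 and 12590 in KOKI LPS cultures, to 18900 and 10050 CPM in the femoral control pools and to 8270 and 9338 in the femoral KOKI pools. The splenic groups overlapped, and both femoral KOKI pools lay below all other libraries. Over the nuclear members, the higher library of a pair exceeded the lower by a median factor of 1.29 in WT LPS, 1.44 with SAHA, 1.23 in KOKI LPS cultures and 1.24 in femoral controls.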
